A study of Mus musculus with 23 samples.

Results

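Responses to a pancreatic tumor without IL-6 were compared between quadriceps muscle and epididymal fat, over the 12599 genes listed in both count tables, of 17194 listed in either. The members are all genes that both tables name, whatever their values, and the quantity compared is the log2 fold change (FC) from no tumor to KPC IL6KO in fat minus the same log2 FC in muscle. KPC IL6KO cells are 1 clone of a mouse pancreatic cancer line from a genetically engineered model with Pdx1-Cre, in which CRISPR/Cas9 editing had disabled Il6, and they were placed in the pancreas of male C57BL/6J mice that were 8 weeks old at surgery and kept an unedited Il6 gene. No tumor mice, which the sample titles call sham, had the surgery without tumor cells. Quadriceps came from 3 no tumor and 4 KPC IL6KO mice and epididymal fat from 4 and 4, so 15 of the 23 libraries of the series entered, and the remaining 8, from mice with KPC tumors that make IL-6, served only to estimate the spread. Tissue was taken from every group on the same day, set by the first group to reach the limit for ending the experiment, and the authors removed another no tumor quadriceps sample, which was not analysed here. The labels number the muscle samples 1 to 4 and the fat samples 5 to 8 and do not say whether any came from the same mouse, so the libraries were treated as independent. Per the labels, RNA of fat and muscle was isolated and sequenced at separate times and with different extraction kits, whereas the study's methods name a single extraction kit and different library kits, so tissue, kit and run cannot be told apart in any difference given here.

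IL-6 is a cytokine that binds its receptor subunit, encoded by Il6ra, and signals through the shared subunit gp130, encoded by Il6st, to the kinase JAK and the transcription factor STAT3. STAT3 induces Socs3, a feedback inhibitor of the pathway, together with acute phase proteins such as haptoglobin, and the related cytokines oncostatin M, LIF and IL-11 reach STAT3 through the same gp130. In skeletal muscle this pathway is known for its part in wasting, with the ubiquitin ligases encoded by Fbxo32 and Trim63, and in fat for lipolysis, the release of stored lipid by the enzymes encoded by Pnpla2 and Lipe.

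The fat libraries held 28769074 to 56308545 counts and the muscle libraries 19259763 to 62832136, the lowest being no tumor 3. Expression is given as CPM, each count being divided by its library's TMM-adjusted total and brought to a common scale, and 3 counts corresponded to 0.0474 to 0.123 CPM in fat and 0.0472 to 0.154 CPM in muscle, which covers counting error only. Muscle carried its defining markers, with 13 fiber genes summing to 190000 to 233700 CPM. The fat pads carried all 8 adipocyte defining markers, but their sum ranged from 1583 to 26290 CPM in no tumor and from 4512 to 17240 CPM in KPC IL6KO. Gpx5, a gene of the epididymis, stood at 39290 and 34260 CPM in no tumor 5 and 7 and at 54960 CPM in KPC IL6KO 6, against 4.70 to 85.8 CPM in the other 5 pads. Pdx1, a transcription factor of pancreas and gut epithelium, stood at 25.6, 0, 1.40 and 3.24 CPM in KPC IL6KO pads 5 to 8 and at no more than 0.123 CPM in no tumor pads. Svs2, a seminal vesicle gene, reached 24850 CPM in KPC IL6KO 5 and no more than 6.41 CPM elsewhere. Pads KPC IL6KO 5 and 8 were highest for Il6 itself as well, at 4.66 and 4.77 CPM, against 0.0343 and 0.267 CPM in pads 6 and 7 and 0 to 0.0632 CPM in no tumor, and the muscle table does not list Il6. Since the mice kept their own Il6, its level in these tissues does not check the labels. In whole tissue, more cells of a type and more RNA per cell cannot be told apart.

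No gene passed the test of the difference between the tissues. The edgeR quasi-likelihood test called 0 of 12599 genes (0%), with a smallest FDR of 0.208 and 1003 genes at an unadjusted p under 0.05, where 630 would be if no gene differed. A gene was called where its FDR (Benjamini-Hochberg) did not exceed 0.05 while its FC reached 1.5 or more. Of these 1003 genes, 785 had the higher log2 FC in fat and 218 in muscle. The same test called 0 of 16962 genes (0%) in fat and 0 of 12831 (0%) in muscle, with 1584 and 887 genes at an unadjusted p under 0.05, where 848 and 642 would be if none differed. When the KPC libraries were left out of the fits, these were 928 of 16726 genes in fat, with a smallest FDR of 0.767, and 2258 of 12816 in muscle. Without KPC IL6KO pads 5 and 8 there were 203 in fat. Without no tumor muscle 1, 2 or 3 there were 603, 376 and 973 in muscle, where 642 would be if none differed. For the difference between tissues the same fits gave 733, 624 and 938 genes, where 630 would be. The spread between mice was wider in fat, with a common dispersion of 0.403 against 0.0517 in muscle, and the median standard error of a log2 FC was 0.28 in fat and 0.18 in muscle.

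The count of called genes depended on the test and on 1 fat pad. The edgeR likelihood ratio test called 39 genes (0.31%) with a higher log2 FC in fat and 0 (0%) with a lower one, and DESeq2 called 40 and 2, of which 38 were shared with the 39. Without the pad KPC IL6KO 6, the quasi-likelihood test itself called 103 genes with a higher log2 FC in fat and 9 with a lower one, 34 of them among the 39. Within the tissues, the likelihood ratio test called 209 genes up (1.23%) in fat, of which 82 are in both tables, and 25 up (0.195%) and 70 down (0.546%) in muscle. For these 82 genes the median log2 FC was 2.88 in fat and 0.11 in muscle. In muscle 48 of the 82 had a log2 FC above 0, and 4, S100a9, Chil3, Csf3r and Csf2rb2, were called up there by the same test. These 4 are 4.88% of the 82 and 16% of the 25 genes called up in muscle.

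Across the 12599 genes, the log2 FC of fat and muscle were nearly unrelated. Pearson's r was 0.091 and Spearman's rho 0.050 over genes, which are not independent replicates, and 51.2% of genes had the same sign in both tissues. To say where a muscle response was small rather than merely not called, a 95% interval was computed for each log2 FC in muscle, and a gene was taken as bounded where the whole interval lay within a 2-fold change in either direction. This held for 10469 genes (83.1%) in muscle and for 55.4% of genes in fat, and 54.6% were bounded within 1.5-fold in muscle. Genes were then sorted by a looser rule than the call, namely an unadjusted p under 0.05, an FC of at least 1.5 and no overlap of CPM values between the groups. In fat 101 genes met this rule upward (0.802%) and 21 downward (0.167%), and in muscle 82 upward (0.651%) and 297 downward (2.36%). Absence of overlap alone was met by 1.48% of genes upward and 0.5% downward in fat, and by 7.52% and 8.1% in muscle. Muscle has only 3 no tumor libraries, and the part of this in its higher shares was not tested. In groups this small, a gene can lack overlap without any real difference. Absence of overlap is therefore given as a description only. These classes describe the libraries and are not calls.

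**Figure D1:**
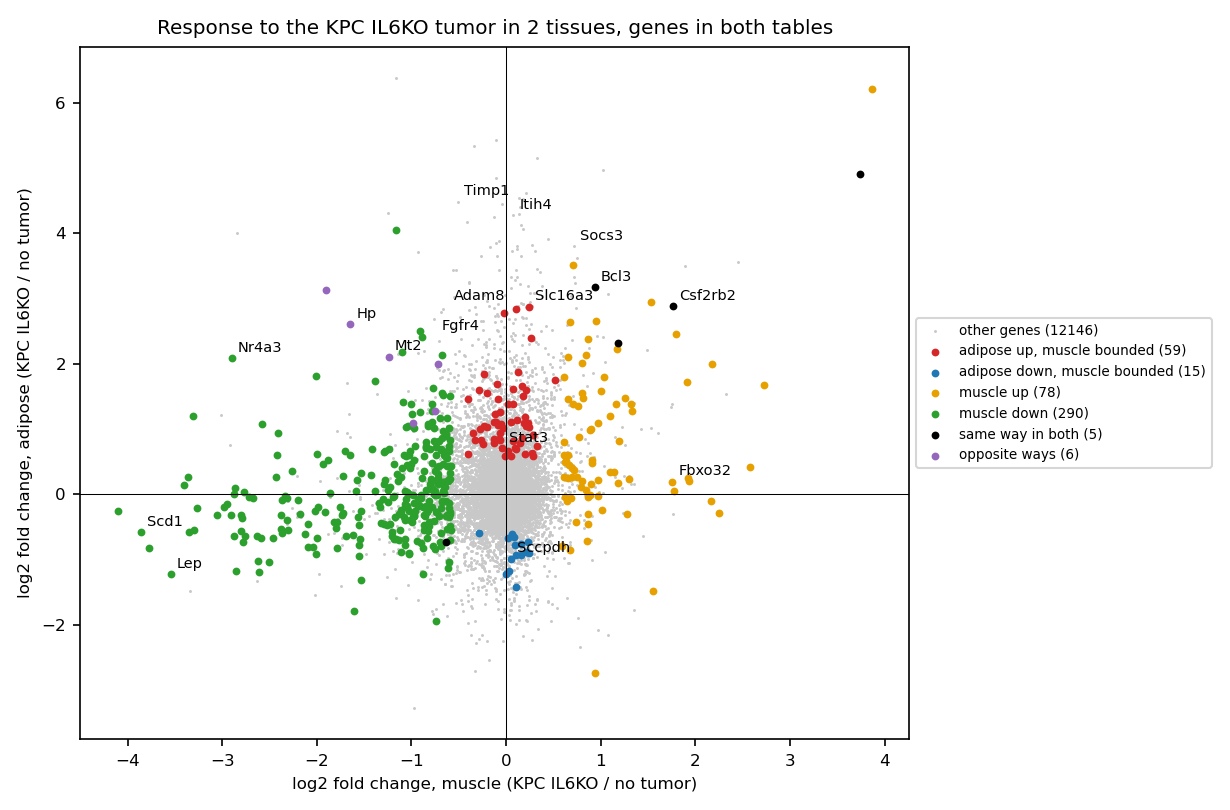
Log2 FC from no tumor to KPC IL6KO in muscle (x axis) and in fat (y axis), 1 point per gene for the 12599 genes in both tables, colored by the looser rule. The 59 genes higher in fat with a bounded muscle change stand above the origin within a narrow vertical band, which the rule and the bound require. The 290 genes lower in muscle lie left of the origin, with a median fat value of -0.085. In both tissues 5 genes met the rule in the same direction.

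Of the 101 genes higher in KPC IL6KO fat, 59 were bounded within 2-fold in muscle and did not meet the rule there. Another 32 did not meet the rule in muscle but were not bounded either, 4 met it upward and 6 downward. The 59 had a median log2 FC of 1.04 in fat (range 0.59 to 2.88) and 0.021 in muscle (range -0.40 to 0.52), and 30 of the 59 were above 0 in muscle. At the edge of the bound, the muscle interval of Gch1 reached down to -0.92 on the log2 scale and that of Rassf5, which was left out, down to -1.004. In 34 of the 59 genes the lowest KPC IL6KO pad was 6 and in 23 it was 7, while the highest was 5 in 48 and 8 in 10. The size of the class depended on single pads, with 477 genes without KPC IL6KO 6, 180 without KPC IL6KO 7, 263 without no tumor 6 and 117 without no tumor 5.

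Among the 12 of these genes named by rule, 3 belong to sugar and lactate handling. Slc16a3 (chromosome 11, 120948484 to 120959000), which encodes the lactate transporter MCT4, was at 5.77, 4.12, 6.70 and 7.45 CPM in the no tumor pads and 79.2, 10.8, 7.96 and 78.5 CPM in KPC IL6KO pads 5 to 8. The pads did not overlap, but pads 6 and 7 were close to no tumor and pads 5 and 8 over 10 times higher. In muscle, where this gene is abundant, it was at 277, 254 and 337 CPM in no tumor and 342, 324, 308 and 388 CPM in KPC IL6KO, and the groups overlapped. The log2 FC was 2.88 (standard error 0.64) in fat and 0.24 (95% interval -0.23 to 0.71) in muscle, a difference of 2.58 (standard error 0.73, edgeR FDR 0.411). Pfkl (chromosome 10, 77986947 to 78009807), the liver type subunit of phosphofructokinase, was at 106, 124, 104 and 76.8 CPM in no tumor fat and 193, 133, 126 and 178 CPM in KPC IL6KO fat, a small step of 0.62 on the log2 scale without overlap. In muscle its log2 FC was -0.40 (interval -0.79 to -0.0078), so the sign was opposite. Pgm1 (chromosome 4, 99929451 to 99987294), a phosphoglucomutase, had a log2 FC of 0.93 in fat and -0.35 in muscle (interval -0.79 to 0.10).

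Others of the 12 act in cell movement, proteolysis and cell death. Adam8 (chromosome 7, 139978932 to 139995207), a membrane metalloprotease of myeloid and tumor cells, was at 5.85, 5.81, 3.74 and 5.22 CPM in no tumor fat and 41.1, 7.37, 11.9 and 87.8 CPM in KPC IL6KO fat. All 4 tumor pads lay above the no tumor pads, pad 6 by little. In muscle it was at 1.09 to 1.57 CPM over both groups, and the difference between tissues was 2.70 (standard error 0.77, edgeR FDR 0.411). Arpc1b (chromosome 5, 145114256 to 145128186), a subunit of the actin-branching Arp2/3 complex, was at 172, 136, 149 and 102 CPM and 495, 187, 188 and 284 CPM in the pads, and had a log2 FC of -0.24 in muscle (interval -0.54 to 0.066). Eps8, which binds actin and growth factor receptor complexes, had a log2 FC of 1.22 in fat and -0.12 in muscle. Apaf1, the core of the apoptosome, was at 12.8, 13.4, 10.9 and 10.5 CPM in no tumor pads and 55.7, 15.1, 19.5 and 40.6 CPM in KPC IL6KO pads, and its muscle interval ran from -0.51 to 0.34. Trim47, a ubiquitin ligase of the TRIM family, had a log2 FC of 1.04 in fat and -0.21 in muscle.

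The remaining 4 are enzymes and a receptor. Gch1 (chromosome 14, 47153895 to 47189413), GTP cyclohydrolase, the first enzyme of tetrahydrobiopterin synthesis, had the smallest p of the class for the difference between tissues (0.000754, edgeR FDR 0.356). It was at 4.67, 3.29, 2.95 and 2.73 CPM in no tumor pads and 12.1, 4.77, 5.23 and 15.5 CPM in KPC IL6KO pads, with pad 6 just above the highest no tumor pad, and its muscle log2 FC was -0.40. Fgfr4 (chromosome 13, 55152818 to 55168759), a fibroblast growth factor receptor, was at 3.52, 2.32, 3.74 and 1.28 CPM and 50.4, 9.43, 5.74 and 8.89 CPM in the pads and at 3.31 to 4.48 CPM over the 7 muscle libraries. Pad 5 alone gave the high mean, and the muscle log2 FC was -0.023 (interval -0.38 to 0.33). For all genes of this class, absence of overlap in fat and a bounded muscle interval were conditions of selection. Gcnt2, a glycosyltransferase, was at 37.6, 33.7, 25.4 and 18.7 CPM and 118, 54.2, 65.2 and 116 CPM in the pads, with a muscle log2 FC of 0.071. Fam20c, a kinase of secreted proteins, was at 24.4, 21.4, 18.7 and 8.30 CPM and 97.7, 24.6, 35.9 and 76.3 CPM in the pads, where the lowest tumor pad exceeded the highest no tumor pad by under 1%, with a muscle log2 FC of -0.10. The class also held Lrg1, an acute phase glycoprotein, and Stat3.

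**Figure D2:**
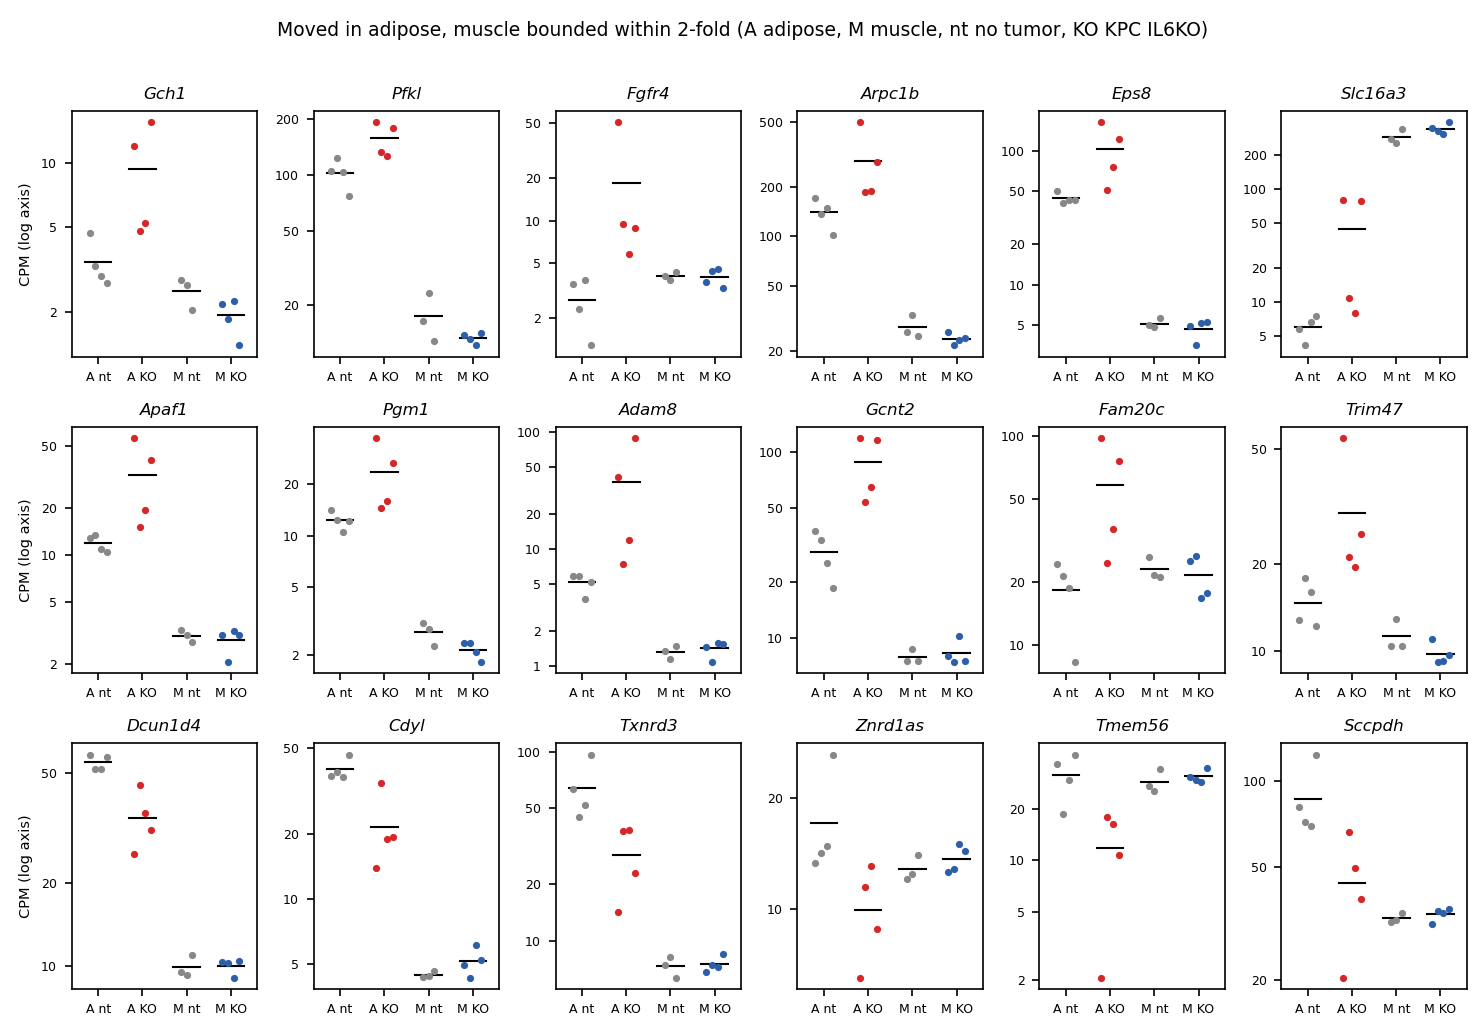
CPM (log axis, different in each panel) of the 12 genes higher and the 6 genes lower in KPC IL6KO fat whose muscle change was bounded within 2-fold, 1 point per library, with the group mean as a bar. Absence of overlap in fat and a small muscle change were conditions for choosing these genes. The points of KPC IL6KO fat are spread widely.

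Of the 21 genes lower in KPC IL6KO fat, 15 were bounded in muscle, with a median log2 FC of -0.89 in fat and 0.093 in muscle. This count was 206 without KPC IL6KO 6, 86 without KPC IL6KO 7, 67 without no tumor 6, 39 without no tumor 5, 26 without no tumor 7 and 6 without no tumor 8. Dcun1d4 (chromosome 5, 73481010 to 73560794), which acts in neddylation of cullins, was at 58.1, 51.4, 51.3 and 57.1 CPM in no tumor pads and 25.4, 45.1, 35.7 and 30.9 CPM in KPC IL6KO pads. Its muscle values ran from 9.05 to 10.9 CPM over both groups, a log2 FC of 0.016 (interval -0.29 to 0.32) against -0.67 in fat. Sccpdh (chromosome 1, 179667749 to 179687189), a lipid droplet associated oxidoreductase, was at 81.3, 71.8, 69.5 and 124 CPM in no tumor pads and 20.3, 66.3, 49.7 and 38.7 CPM in KPC IL6KO pads, with pad 6 nearest to no tumor. In muscle it had a log2 FC of 0.051 (interval -0.27 to 0.38). Txnrd3, a thioredoxin and glutathione reductase, had a log2 FC of -1.19 in fat and 0.029 in muscle. Cdyl, a chromodomain protein of chromatin, had -0.89 and 0.21, Tmem56, a membrane protein, -1.42 and 0.10, and the noncoding gene Znrd1as -0.78 and 0.093, again as log2 FC in fat and muscle. The smallest unadjusted p for the difference among the 6 was 0.00740, for Dcun1d4, and none was under an FDR of 0.456.

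Among genes of the IL-6 pathway, Socs3 and Stat3 were higher in all 4 tumor pads than in any no tumor pad, and Osmr was higher in all 4 tumor muscles than in any no tumor muscle. Over all genes, such absence of overlap upward was met by 1.48% in fat and 7.52% in muscle. Socs3 (chromosome 11, 117966079 to 117970336), the feedback inhibitor, was at 2.29, 4.43, 2.42 and 4.41 CPM in no tumor pads and 75.8, 8.61, 29.4 and 75.8 CPM in KPC IL6KO pads 5 to 8. Every tumor pad lay above every no tumor pad, pad 6 by about 2-fold and pads 5 and 8 by far more. In muscle Socs3 was at 5.37, 3.10 and 3.28 CPM in no tumor and 12.8, 4.08, 4.63 and 4.44 CPM in KPC IL6KO, where replicate 1 alone stood high. The log2 FC was 3.80 (standard error 0.56, edgeR FDR 0.325) in fat and 0.71 in muscle with an interval of -0.28 to 1.71, so a 2-fold change in muscle was not bounded away. The difference was 3.04 (standard error 0.78, edgeR quasi-likelihood FDR 0.356, likelihood ratio FDR 0.0404). Stat3 (chromosome 11, 100886806 to 100939594), the transcription factor, was at 182, 143, 143 and 97.2 CPM in no tumor pads and 225, 202, 236 and 257 CPM in KPC IL6KO pads, without overlap. Its muscle levels were 63.6, 63.0 and 74.2 CPM and 63.9, 58.7, 77.8 and 60.1 CPM, with a log2 FC of -0.039 (interval -0.45 to 0.38). In fat the log2 FC of Stat3 was 0.70 (standard error 0.28, edgeR FDR 0.49, likelihood ratio FDR 0.498). The difference was 0.72 (edgeR FDR 0.622), and Stat3 kept its class in 11 of 15 fits with 1 library left out.

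The subunits of the IL-6 receptor showed smaller values than Socs3. Il6ra had a log2 FC of 0.44 (standard error 0.22) in fat and 0.031 (standard error 0.31) in muscle, and Il6st 0.49 (standard error 0.34) and 0.25 (standard error 0.18), with overlapping groups in fat for both. Osmr (chromosome 15, 6813568 to 6874968), the oncostatin M receptor, was at 7.05, 7.19 and 6.81 CPM in no tumor muscle and 11.9, 9.40, 16.1 and 14.4 CPM in KPC IL6KO muscle, and was without overlap higher in the tumor mice. In fat it was at 46.0, 47.5, 28.6 and 36.8 CPM and 71.0, 38.9, 108 and 96.3 CPM, where pad 6 overlapped no tumor. Its log2 FC was 0.88 in muscle (standard error 0.16, edgeR FDR 0.209) and 0.99 in fat (standard error 0.38, edgeR FDR 0.482), a difference of 0.084 (interval -0.84 to 1.01). Of the 22 genes of a JAK-STAT3 list, 20 had a log2 FC above 0 in fat and 13 in muscle, 3 met the looser rule upward in fat (Socs3, Stat3 and Bcl3) and 2 in muscle (Osmr and Bcl3), and 14 were bounded within 2-fold in muscle.

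Itih4 (chromosome 14, 30886476 to 30901986), a liver-type acute phase protein, was at 0.655, 1.83, 0.395 and 1.72 CPM in no tumor pads and 25.99, 21.4, 20.4 and 22.1 CPM in KPC IL6KO pads, so that all 4 tumor pads, pad 6 included, stood over 10-fold above the highest no tumor pad. In muscle it was near the floor at 0.154 to 0.283 CPM, so its muscle interval was wide (-1.39 to 1.54) around a log2 FC of 0.072. In fat the fitted log2 FC came to 4.28 with a standard error of 0.52 and an edgeR FDR of 0.235, the smallest FDR of the fat fit, and the difference was 4.15 (standard error 0.88, edgeR FDR 0.280). With the adipocyte marker sum as a covariate in each tissue, an alternative chosen after seeing the data, Itih4 was called in the test between tissues, with an FDR of 0.0193, and in fat. Hp (chromosome 8, 109575128 to 109579172), haptoglobin, was at 556, 1276, 248 and 536 CPM in no tumor pads and 2156, 1785, 5941 and 6082 CPM in KPC IL6KO pads, and at 32.7, 74.6 and 33.5 CPM in no tumor muscle and 19.7, 3.56, 21.1 and 15.6 CPM in KPC IL6KO muscle. It was higher without overlap in fat and lower without overlap in muscle, with a difference of 4.24 (standard error 1.01, edgeR FDR 0.356). The 8 adipocyte defining markers summed to 509 to 2538 CPM in no tumor muscle and 189 to 612 CPM in KPC IL6KO muscle. Both Hp and this sum were highest in no tumor muscle 2 and lowest in KPC IL6KO muscle 2. The part of adipocytes within the quadriceps in the muscle values of Hp was not tested. Of the 11 acute phase genes in both tables, 9 had a log2 FC above 0 in fat and 2 in muscle, the medians were 1.44 and -0.32, and over all genes the medians were 0.017 and 0.0029. Lcn2, lipocalin 2, was high in the same 3 pads as the epididymis gene Gpx5, with 5112, 63.1, 3355 and 79.3 CPM in no tumor pads and 49.6, 4437, 81.7 and 87.1 CPM in KPC IL6KO pads.

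The serum amyloid A genes are listed for fat only. Saa3 was at 3.11, 5.81, 1.53 and 2.61 CPM in no tumor pads and 113, 13.1, 35.1 and 850 CPM in KPC IL6KO pads. Saa1 stood at no more than 0.163 CPM in no tumor pads and at 1.03, 8.57, 1.49 and 3.03 CPM in KPC IL6KO pads, highest in pad 6. Pad 6 also held the highest levels of the liver genes Alb, at 283 CPM against 0.349 to 13.8 CPM elsewhere, and Apoa1, at 26.7 CPM against 0.0465 to 1.75 CPM. The part of these cell mixtures in the acute phase values was not tested. These genes, with Pdx1 and Svs2, were chosen after their values were seen.

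**Figure D3:**
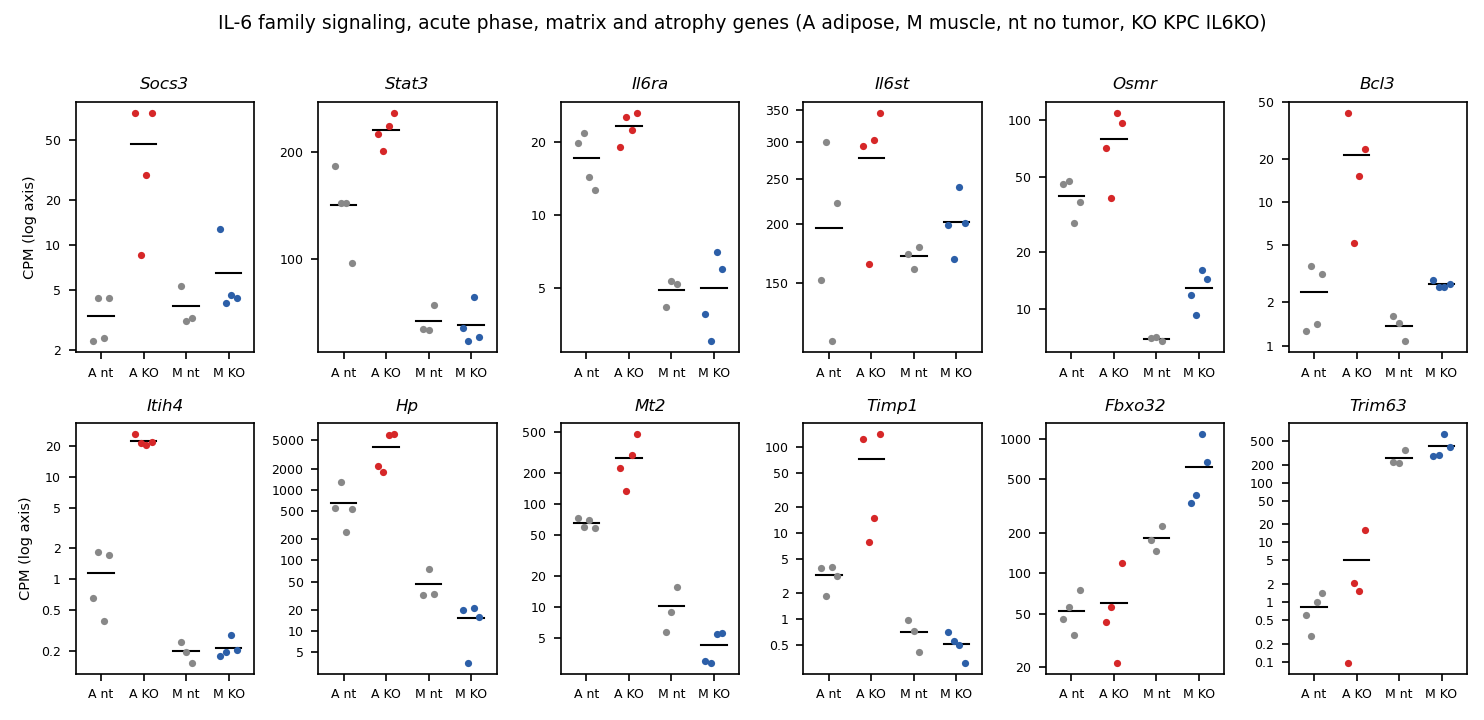
CPM (log axis, different in each panel) of genes of IL-6 family signaling, the acute phase, matrix and muscle atrophy in fat and muscle, 1 point per library, with the group mean as a bar. Itih4 and Hp stand clear of no tumor in all 4 KPC IL6KO pads, Socs3 and Timp1 split between high pads 5 and 8 and lower pads 6 and 7, and in muscle Fbxo32, Osmr and Bcl3 lie above no tumor and Hp and Mt2 below it without overlap.

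For 6 genes the tissues met the looser rule in opposite directions, each higher in fat and lower in muscle, and none the reverse. Besides Hp these were Mt2, Fosl2, Vcan, Tmc8 and Vnn1. Mt2 (chromosome 8, 94172618 to 94173567), metallothionein 2, was at 73.3, 60.3, 69.6 and 58.6 CPM in no tumor pads and 222, 133, 302 and 474 CPM in KPC IL6KO pads, and at 5.78, 9.07 and 15.9 CPM and 3.01, 2.91, 5.47 and 5.66 CPM in muscle. All tumor pads were above and all tumor muscles below the controls of the same tissue, by a log2 FC of 2.11 and -1.24. Fosl2 (chromosome 5, 32136472 to 32157840), an AP-1 transcription factor, had a log2 FC of 1.27 (standard error 0.29) in fat and -0.75 (standard error 0.29) in muscle, a difference of 1.99 (edgeR FDR 0.280). Vcan (chromosome 13, 89655309 to 89743027), the matrix proteoglycan versican, had 1.99 in fat and -0.72 in muscle, and Tmc8 (chromosome 11, 117781584 to 117793137), a membrane protein of lymphocytes and skin, 1.08 and -0.99. All 6 were among the 39 genes called by the likelihood ratio test, with FDR of 0.0176 for Hp, 0.0214 for Mt2, 0.0126 for Fosl2, 0.00976 for Vcan and 0.0127 for Tmc8.

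The 39 genes called by the likelihood ratio test were chosen by their difference, so their signs in the tissues are a description. All 39 had a log2 FC above 0 in fat (median 2.52) and 35 had one below 0 in muscle (median -0.75), 18 met the looser rule downward in muscle, 13 met it upward in fat, and 5 were bounded within 2-fold in muscle. Timp1 (chromosome X, 20870166 to 20874737), an inhibitor of matrix metalloproteases, had the smallest p for the difference among the genes named by rule (6.01e-05, edgeR FDR 0.280), and over all genes it was that of Nfasc (1.65e-05, edgeR FDR 0.208), a cell adhesion molecule with a log2 FC of 2.19 in fat and -0.86 in muscle. Timp1 was at 3.93, 1.83, 4.00 and 3.13 CPM in no tumor pads and 125, 7.82, 14.8 and 142 CPM in KPC IL6KO pads. In muscle Timp1 was at 0.970, 0.725 and 0.410 CPM in no tumor and 0.709, 0.543, 0.488 and 0.309 CPM in KPC IL6KO. For Timp1 the tumor pads did not overlap no tumor, pads 5 and 8 stood apart from 6 and 7, and the muscle groups overlapped. Also among the 39 are 4 genes that met the rule downward in muscle and not in fat, Nuak2, an AMPK-related kinase, Anxa8, an annexin, Nr4a3, an orphan nuclear receptor, and H2-Q10, an MHC class I molecule. Nr4a3 (chromosome 4, 48045078 to 48086447) was at 22.3, 20.9 and 6.66 CPM in no tumor muscle and 1.28, 2.58, 1.46 and 3.64 CPM in KPC IL6KO muscle, with a fitted log2 FC of -2.90 there, a standard error of 0.44 and an edgeR FDR of 0.162, and at 0.205, 3.42, 0.395 and 1.58 CPM and 12.5, 0.960, 2.70 and 7.76 CPM in fat, where the groups overlapped. Anxa8 had a log2 FC of 4.05 in fat and -1.16 in muscle, H2-Q10 1.20 and -3.31, and Nuak2 1.22 and -0.99. H2-Q10 shares sequence with other MHC class I genes, so its counts are uncertain.

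Only 5 genes met the looser rule in the same direction in both tissues. They were the neutrophil calcium-binding protein gene S100a9, Csf2rb2, a cytokine receptor subunit of myeloid cells, Fgr, a myeloid kinase, and Bcl3, a nuclear IκB protein, all higher, and 3632451O06Rik, lower. S100a9 went from a mean of 0.191 ± 0.160 to 5.74 ± 4.50 CPM (SD, n = 4) in fat and from 0.0630 ± 0.0692 (SD, n = 3) to 1.05 ± 0.286 CPM (SD, n = 4) in muscle. Csf2rb2 (chromosome 15, 78282507 to 78305721) was at 4.05, 12.8, 1.30 and 6.83 CPM in no tumor pads and 32.8, 14.5, 53.4 and 83.8 CPM in KPC IL6KO pads, and at 2.32, 2.57 and 2.71 CPM and 7.98, 4.72, 13.1 and 8.40 CPM in muscle. It was without overlap in both tissues, with a log2 FC of 2.88 and 1.76 and a difference of 1.10 (interval -0.57 to 2.76). Bcl3 (chromosome 7, 19808462 to 19822824) was at 1.61, 1.43 and 1.08 CPM in no tumor muscle and 2.86, 2.58, 2.55 and 2.69 CPM in KPC IL6KO muscle, with a log2 FC of 0.94 there and 3.18 in fat. All 5 neutrophil markers in both tables had a log2 FC above 0 in each tissue, with medians of 2.46 in fat and 1.89 in muscle. Their sum was 4.55 to 8.04 CPM in KPC IL6KO muscle and 2.98 to 4.51 CPM in no tumor muscle. In no tumor muscles 1, 2 and 3, respectively 2, 1 and 3 of the 5 were at or under 3 counts. In fat, the sum of the 8 neutrophil markers listed there was 10.9 to 774 CPM in no tumor and 8.92 to 408 CPM in KPC IL6KO, and these ranges overlapped. That sum includes 3 markers listed for fat only, and up to 3 of the 8 were at or under 3 counts in a pad. A few abundant genes can set such a sum, so it does not describe the 5 markers that were higher in fat. The 2 erythroid (red blood cell) markers listed for muscle summed to 1.947 to 2.606 CPM in no tumor and 3.875 to 6.602 CPM in KPC IL6KO. These muscle groups did not overlap, and 1 of the 2 markers was at or under 3 counts in each no tumor muscle. The part of blood within the quadriceps in the neutrophil values was not tested.

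Genes that met the rule in muscle but not in fat were more often lower, with 78 higher and 290 lower. In fat, only 9 of the 78 and 42 of the 290 were bounded within 2-fold, against 55.4% of all genes. The fat log2 FC was above 0 for 60 of the 78 and below 0 for 160 of the 290. A fat response is therefore not shown to be absent for most of them. Fbxo32 (chromosome 15, 58175879 to 58214892), the atrophy ubiquitin ligase atrogin-1, was at 176, 146 and 226 CPM in no tumor muscle and 332, 383, 1081 and 676 CPM in KPC IL6KO muscle, each tumor muscle above each no tumor muscle. Its log2 FC was 1.76 in muscle (standard error 0.35, edgeR FDR 0.228, likelihood ratio FDR 0.00253) and 0.19 in fat (standard error 0.43), a difference of -1.62 (standard error 0.61, edgeR FDR 0.531). Trim63, the other ligase, had a log2 FC of 0.64 in muscle (interval -0.007 to 1.29) and 2.59 in fat, and the difference of 1.85 turned to -0.18 without KPC IL6KO pad 8. Lonrf1, a ubiquitin ligase, had 1.28 in muscle and -0.31 in fat, Plscr2, a phospholipid scramblase, 1.78 and 0.043, and Nwd1 0.94 and -2.74.

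Among genes known from fat cells, 5 of 18 on the adipocyte list met the rule downward in muscle. Lep, which encodes leptin, was at 6.58, 32.0 and 8.91 CPM in no tumor muscle and 1.89, 0.543, 2.64 and 0.360 CPM in KPC IL6KO muscle, and Scd1, a fatty acid desaturase, at 541, 1107 and 472 CPM and 91.7, 34.1, 36.01 and 33.5 CPM. Both groups of values were without overlap, with a muscle log2 FC of -3.54 and -3.86, while in the pads Lep had -1.23 (standard error 1.08) and Scd1 -0.58 (standard error 1.12). Adipoq, which encodes adiponectin, did not meet the rule, with -2.32 in muscle (standard error 1.05) and -0.45 in fat (standard error 0.77). The sum of the 8 adipocyte defining markers in muscle was 509 to 2538 CPM in no tumor and 189 to 612 CPM in KPC IL6KO, and 91.7% of the 290 genes had a higher mean CPM in no tumor fat than in no tumor muscle, against 80.3% of all genes. The part of adipocytes within the quadriceps in these values was not tested. For lipolysis in the pads themselves, Pnpla2 had a log2 FC of -0.37 (standard error 0.84) and Lipe -0.33 (standard error 0.81), with widely overlapping groups.

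Over lists of genes with a shared function, the median difference between fat and muscle was widest for the acute phase list, at 2.32 on the log2 scale, then for the adipocyte list at 1.37 and the matrix list at 1.33, against 0.0011 over all genes. The value of the adipocyte list was 0.60 without no tumor muscle 2, 0.74 without KPC IL6KO pad 7 and 2.33 without no tumor pad 6. The lists are described by their counts and were not tested. Of 29 collagen and matrix genes, 26 had a log2 FC above 0 in fat and 1 in muscle, with medians of 1.04 and -0.45, and Timp1 alone met the looser rule in fat. Of 21 proliferation genes 21 were above 0 in fat and 6 in muscle (medians 1.39 and -0.088). The median difference of this list was 1.20, but 0.39 without KPC IL6KO pad 5 and 0.065 without pads 5 and 8. Its member Mcm2, a subunit of the replicative helicase, met the rule in fat at a log2 FC of 1.11 against -0.13 in muscle. Of 16 chemokine and receptor genes 14 were above 0 in fat and 12 in muscle (medians 1.36 and 0.16). Ccl8, a monocyte chemokine, was at 4.17, 4.77, 4.12 and 4.98 CPM in no tumor pads and 46.1, 12.6, 59.2 and 94.3 CPM in KPC IL6KO pads, while in muscle it was at 0.173, 0.333 and 1.08 CPM and 2.97, 1.35, 1.40 and 4.29 CPM. Its groups did not overlap in either tissue, and its muscle log2 FC of 2.45 had an interval of -0.084 to 4.99, so Ccl8 met the rule in fat only and was not bounded in muscle. Ccl19 had a log2 FC of 1.31 in fat and -0.32 in muscle, and Ccl6, a myeloid chemokine, 3.19 and 0.38 with overlapping groups in both.

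Of 18 complement genes 15 were above 0 in fat and 8 in muscle (medians 1.22 and -0.19), and none met the rule in fat. Of 15 NF-κB target genes 14 were above 0 in fat and 10 in muscle (medians 0.79 and 0.10), and Nfkb2 and Nfkbiz, which encode an NF-κB subunit and a nuclear IκB protein, met the rule in fat with a log2 FC of 1.25 and 1.29 against 0.11 and 0.24 in muscle. Of 16 CEBP and immediate early factor genes 15 were above 0 in fat and 1 in muscle (medians 0.81 and -0.48), and 4 met the rule downward in muscle. Of 20 glucocorticoid target genes 11 were above 0 in fat and 5 in muscle (medians 0.56 and -0.34). Of 21 genes of the TGF-beta, myostatin and activin list 14 and 7 were above 0 (medians 0.48 and -0.14). Of 17 glycolysis genes 12 were above 0 in fat and 9 in muscle (medians 0.44 and 0.0084), and Gsr, glutathione reductase of the NRF2 list, had 1.09 in fat and 0.24 in muscle. Without KPC IL6KO pads 5 and 8 the median difference went from 0.97 to 0.21 for NF-κB and from 0.50 to -0.011 for glycolysis. For the TGF-beta list it went from 0.66 to 0.29.

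The oxidative phosphorylation, proteasome and autophagy lists had small median changes in both tissues. All 40 oxidative phosphorylation genes were bounded within 2-fold in muscle and in fat (medians -0.0063 and -0.020), as were all 31 proteasome genes (medians 0.15 and 0.054) and all 21 autophagy genes (medians 0.092 and -0.099). All 31 proteasome genes had a log2 FC above 0 in muscle, against 21 in fat, and Psmd2, the most abundant, had 0.40 in muscle (interval -0.093 to 0.89). Over all genes, 6391 of 12599 were above 0 in muscle. Of 20 muscle atrophy and FoxO target genes 12 were above 0 in fat and 14 in muscle (medians 0.071 and 0.16). Here 3 met the rule upward in fat, Cdkn1a, Mt1 and Mt2, and 2 in muscle, Fbxo32 being the one described here, while Mt2 met it downward in muscle. The interferon list of 28 genes had medians of 0.27 in fat and 0.076 in muscle, with 0 genes meeting the rule in either tissue, and the fatty acid oxidation list of 25 genes had -0.082 and 0.13. For 20 fatty acid and triglyceride synthesis genes the medians were -0.56 in fat and -1.03 in muscle, and 0 met the rule in fat and 9 downward in muscle. For 21 cholesterol genes the medians were -0.46 and -0.21, and 0 met the rule in fat and 1 downward in muscle. The lists of lipolysis (19 genes, medians -0.23 in fat and -0.57 in muscle), circadian clock (18 genes, -0.36 and -0.019), ATF4 stress response (19 genes, 0.047 and 0.12), NRF2 antioxidant (20 genes, 0.025 and 0.11) and MHC class I and II (16 genes, 0.24 and 0.040) completed the 25 lists.

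**Figure D4:**
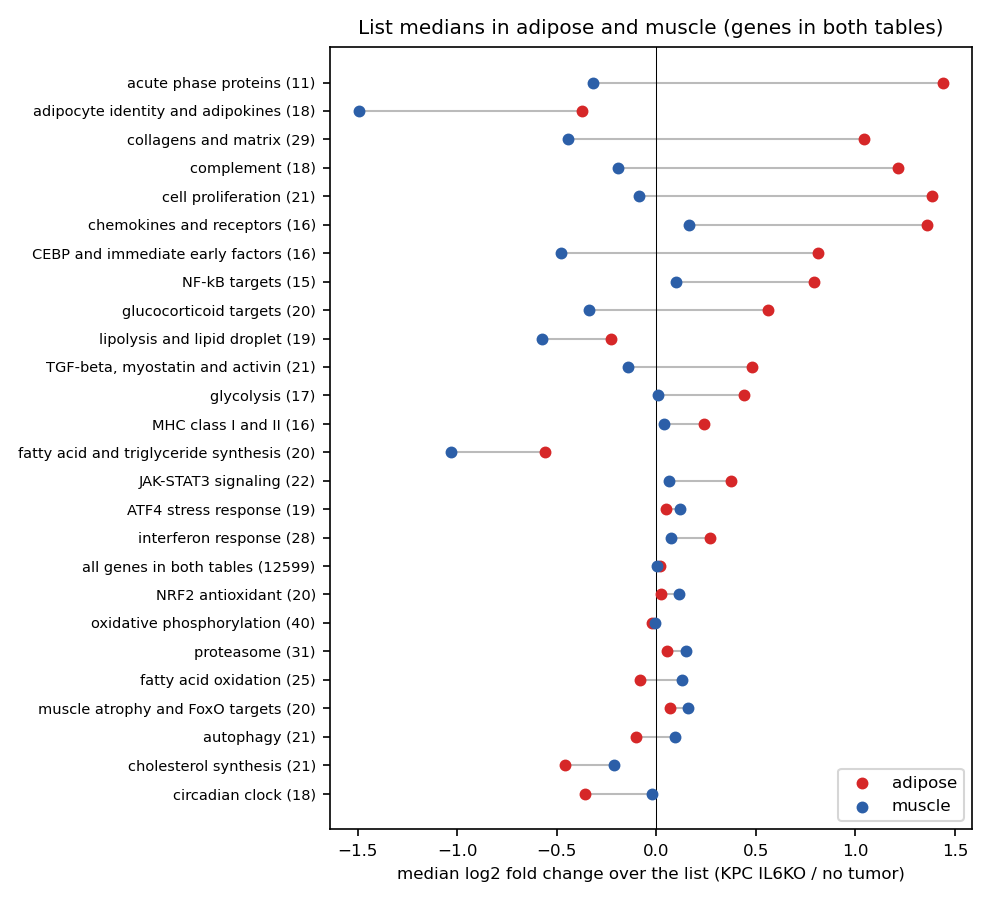
Median log2 FC from no tumor to KPC IL6KO over each list of genes in fat (red) and muscle (blue), with the number of its genes in both tables, ordered by the median difference between the tissues. Acute phase, matrix, complement, proliferation and CEBP lists lie above 0 in fat and below it in muscle, and the all-gene medians coincide near 0.

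The size of the fat response depended on 2 of the 4 pads. KPC IL6KO pads 5 and 8, those with most Pdx1 and Il6, were left out in a setting chosen after seeing the data. All 59 genes of the main class then had a log2 FC above 0 in fat. The rule had fixed this sign in advance, since it asks for no overlap of any tumor pad with no tumor. Their median dropped from 1.04 to 0.44, and 17 of the 59 kept an FC of at least 1.5. By the rule applied anew, 18 genes were higher in fat and bounded in muscle, 8 of them among the 59, and 5 were lower, 1 of them among the 15. The log2 FC of Slc16a3 went from 2.88 to 0.64, that of Adam8 from 2.85 to 0.90 and that of Timp1 from 4.49 to 1.81. For Itih4 it was 4.17 in place of 4.28, for Hp 2.56 in place of 2.61, for Stat3 0.63 in place of 0.70 and for Mt2 1.73 in place of 2.11. Macrophage markers summed to 1550, 431, 1263 and 3274 CPM in KPC IL6KO pads 5 to 8 and to 290 to 1003 CPM in no tumor pads, so that pads 5, 7 and 8 stood above no tumor. Mesothelial markers summed to 3968, 1074, 844 and 1861 CPM against 500.5 to 1158 CPM, higher in pads 5 and 8. Markers of epithelial tumor cells summed to 4490, 2299, 1342 and 2205 CPM against 717 to 2259 CPM, a sum clearly higher in pad 5 only. This list is not specific to tumor cells, and it shares Krt7, Krt8, Krt18 and Krt19 with the mesothelial list. Foxa2, chosen after its values were seen, was at 19.5, 0.0343, 1.10 and 3.88 CPM in pads 5 to 8. Cdx2, chosen likewise, was at 7.31, 0, 0.683 and 3.09 CPM. No tumor pads held no more than 0.205 CPM of Foxa2 and 0.093 CPM of Cdx2. The fat table lists all 13 macrophage, 11 mesothelial and 13 epithelial markers. Skeletal muscle fiber markers reached 3246 CPM in KPC IL6KO 8, where Trim63 stood at 16.4 CPM, against 19.0 to 360 CPM in no tumor pads. Their part in the fat response was not tested.

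**Figure D5:**
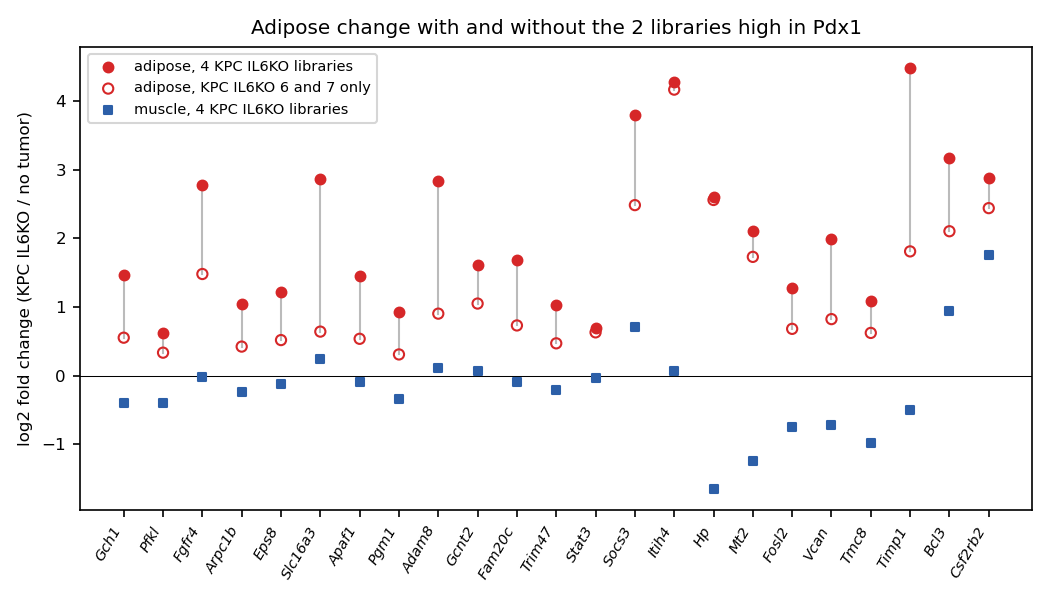
Log2 FC from no tumor to KPC IL6KO in fat with all 4 KPC IL6KO pads (filled red) and with pads 6 and 7 alone (open red), and in muscle (blue squares), for the 12 named genes higher in fat with a bounded muscle change and for 11 others. Itih4, Hp and Stat3 hardly shift without pads 5 and 8, whereas Slc16a3, Adam8 and Timp1 lose most of their size.

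The promoters of the named genes were read for 4 motifs, on both strands, in the RefSeq sequence (GRCm38.p6) from 250 bases before to 50 bases after the start, which 26 of the 34 genes had. The motifs were STAT (TTCNNNGAA), CEBP (TTGCNNCAA), glucocorticoid receptor (ACANNNTGT) and NF-κB (a pattern narrower than its usual consensus). They occur in 8.47%, 2.12%, 6.9% and 1.62% of 27025 promoters. The CEBP pattern is longer than the palindromic CEBP site and cannot match it, so its counts do not cover such sites. A single match was found, a STAT motif in Csf2rb2, higher in both tissues, and it is printed for that reason with the motif in capitals, from chr15:78305688-78305796 on the minus strand.
Csf2rb2: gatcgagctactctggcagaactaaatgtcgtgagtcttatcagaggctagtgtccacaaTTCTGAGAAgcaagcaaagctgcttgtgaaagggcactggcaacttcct
None of the 11 promoters found for genes higher in fat with a bounded muscle change held any of the 4 motifs, which says only that these letters are not in these windows.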

How the data were processed

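RNA was sequenced from quadriceps and epididymal fat, 1 library per sample. The authors deposited 1 table of raw read counts per gene for each tissue. Per the submitters' processing notes, FastQC, STAR, Subread featureCounts 1.5.1 and edgeR 3.12.1 were used with mouse build mm10. No gene was dropped by edgeR's filterByExpr. Gene coordinates are from RefSeq (GRCm38.p6).

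Counts were TMM-normalized and tested in edgeR 4.0.16 (R 4.3.3) by quasi-likelihood F tests, within each tissue and, for the difference, as the interaction of tissue and tumor in a joint model of genes in both tables. KPC libraries were kept in the fits to estimate the spread. Genes were called where the FDR (Benjamini-Hochberg) did not exceed 0.05 while the FC reached 1.5 or more. P-values measure the spread between the samples of one sequencing batch per tissue. The steps were tested on simulated data with 200 changed genes. The simulated counts had the same dispersion for every gene and no mixed pads, so this does not cover the uneven pads seen in fat.

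Genes named were, among those with a mean of at least 1 CPM in both tissues, the 12 and 6 of smallest interaction p among those higher and lower in fat with a muscle interval within 2-fold, 4 each of muscle up and muscle down, up to 6 moving the same or opposite ways, for each list the most abundant gene and up to 4 members in a fat class, and a set of IL-6, atrophy, lipid and epididymis genes. The comparison, its members and the lists were chosen with earlier results of these data known. Alternatives were the edgeR likelihood ratio test, DESeq2 1.42.0, limma 3.58.1 voom, separate fits per tissue, RLE normalization, low-count filters, only the libraries compared, a replicate block and leaving out each library. Results for some genes are not reported here.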

Additional observations from a re-analysis of the deposited data

Results flagged for a closer look

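Gaps of 1 library from the rest of its group were tested in 277 groups of 4 by Dixon's ratio of the gap to the group's range, and 20 (7.22%) exceeded the critical value, where chance gives about 1 in 20. In KPC IL6KO muscle, Socs3 was high in replicate 1 (ratio 0.895, 12.8 against 4.63 CPM in the next), so its muscle log2 FC leans on 1 mouse. In the same group Scd1 was high in replicate 1 (0.927), Ctsl in replicate 3 (0.921), Nwd1 (0.883) and Nfkbiz (0.855) in replicate 4 and Sod2 in replicate 2 (0.838), while Slc7a5 was low in replicate 1 (0.863), Dcun1d4 in replicate 3 (0.855) and Apaf1 (0.844) and Eps8 (0.834) in replicate 2. In KPC IL6KO fat, the summed T and NK cell markers (0.895, 491 against 18.1 CPM) and Lcn2 (0.875, 4437 against 87.1 CPM) were high in pad 6, Psmd2 in pad 5 (0.873) and Aldoa in pad 8 (0.85), and Sod2 was low in pad 5 (0.849). In no tumor fat, Sod2 (0.872) and Fth1 (0.852) were high in pad 6, Znrd1as in pad 8 (0.844) and Vcan in pad 5 (0.83), and Nwd1 was low in pad 6 (0.83).

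For 6 genes every KPC IL6KO pad lay above every no tumor pad and every KPC IL6KO muscle below every no tumor muscle. The difference in log2 FC, fat minus muscle, was 4.99 for Vnn1, 4.24 for Hp, 3.33 for Mt2, 2.67 for Vcan, 2.04 for Tmc8 and 1.99 for Fosl2. The edgeR quasi-likelihood test of this difference called none of them, and the likelihood ratio test called all 6.

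Among genes listed for fat only, Il6 reached 4.77 CPM in a KPC IL6KO pad against at most 0.0632 CPM in no tumor, Pdx1 25.6 against 0.123 CPM, and Svs2 24850 against 1.76 CPM.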

How the results depend on the processing

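The absence of calls depended on the test. Against 0 by the quasi-likelihood test, the likelihood ratio test called 39 genes with a higher log2 FC in fat, 209 up in fat, and 25 up and 70 down in muscle. DESeq2 called 40 higher and 2 lower for the difference, 281 up and 4 down in fat, and 30 up and 63 down in muscle, and separate fits per tissue 100 higher and 2 lower. The cause was not tested. With 1 library left out, the calls for the difference ranged from 0 to 103 higher and 0 to 9 lower, those in fat from 0 to 12 up and 0 to 1 down and those down in muscle from 0 to 2. Above 0 were only the fits without fat KPC IL6KO 6 and, in muscle, without KPC IL6KO 1. The classes ranged from 54 to 477 genes higher and 6 to 206 lower in fat with muscle bounded, and the median differences from -0.21 to 0.23 for muscle atrophy and FoxO targets, -0.090 to 0.26 for NRF2, 0.45 to 1.06 for NF-κB and -0.046 to 0.19 for ATF4.

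Deviations of same-numbered no tumor and KPC IL6KO libraries correlated at -0.58 to 0.49 in fat and -0.10 to 0.09 in muscle. Those of differently numbered libraries correlated at -0.59 to 0.67 and -0.27 to 0.31. This compares different mice within a tissue, so it cannot decide whether a number marks a batch or whether muscle and fat share mice. A replicate block gave 0 calls and classes of 54 and 14 genes, and turned the difference of Pnpla2 to 0.15, as voom did (0.30).

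The settings that follow were chosen after seeing the data. Without KPC IL6KO pads 5 and 8 the classes held 18 and 5 genes, the median differences were 0.21 for NF-κB, -0.011 for glycolysis, 0.065 for proliferation and 0.29 for TGF-beta, and signs turned for 3632451O06Rik (0.045), Il6st (-0.018), Lamp1 (0.0082), Pnpla2 (0.14) and Slc7a5 (0.15). Without the 3 pads high in Gpx5 the classes held 455 and 154 genes, the circadian median was -0.63, and signs turned for Il6st (-0.027) and Slc7a5 (1.36). With the adipocyte marker sum as a covariate 1 gene was called for the difference and in fat, Itih4 both times, and 1 down in muscle, Tmem45b, the ATF4 median was 0.26, and signs turned for Adipoq (-0.27), Atp5b (0.0058), Cfd (-0.52), Osmr (-0.16) and Slc7a5 (0.77). The newer edgeR quasi-likelihood fit called 0 genes. Leaving out 1 library turned the sign of 3632451O06Rik (-0.27 to 0.071), Osmr (-0.13 to 0.31), Slc7a5 (-3.18 to 0.14), Aldoa (-0.39 to 0.23), Atp5b (-0.22 to 0.23), Lpl (-1.71 to 0.088), Pnpla2 (-0.82 to 1.01), Ctsl (-0.081 to 0.32) and Trim63 (-0.18 to 2.28).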
